A study of Saccharomyces cerevisiae with 6 samples.

Results

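The genes described here encode enzymes between pyruvate and acetyl-CoA in Saccharomyces cerevisiae, those of the cytosolic route by way of acetaldehyde and acetate together with mitochondrial ones that act on the same intermediates: the pyruvate decarboxylases PDC1 and PDC6, the acetaldehyde dehydrogenases ALD3, ALD4, ALD5 and ALD6, the acetyl-CoA synthetases ACS1 and ACS2, and the CoA transferase ACH1. They were taken by gene name, 9 genes out of 5479 gene models in the authors' table, and each name stood on 1 model. The tested strain was IMY104, genotype acs1Δ acs2Δ, which carries the plasmid pUDC140 with the Enterococcus faecalis genes pdhA, pdhB, aceF and lpd for a pyruvate dehydrogenase complex and lplA and lplA2 for lipoylation. The other strain was CEN.PK113-7D, with ACS1 and ACS2 intact and no plasmid. The plasmid has a CEN6 ARS4 origin. Each strain was grown in 3 independent aerobic chemostats limited by glucose, with the dilution set to 0.10 per h and the culture held at pH 5.0 and 30 °C. Lipoic acid from an ethanol stock (500 ng/mL) and 7.5 g/L of glucose were in the medium of both strains. The deletions, the plasmid and any other difference in the making of the strains cannot be told apart in this design. In the authors' table the sample name of the IMY104 libraries also holds the name of another CEN.PK strain, whose relation to IMY104 is not given in the labels.

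Yeast has no pyruvate dehydrogenase in the cytosol. Pyruvate decarboxylase releases CO2 from pyruvate to give acetaldehyde, acetaldehyde dehydrogenase oxidises it to acetate, and acetyl-CoA synthetase spends ATP to join acetate to coenzyme A. The product feeds the synthesis of fatty acids and sterols and the acetylation of histones. Acetaldehyde can also be reduced to ethanol by alcohol dehydrogenase, and in respiring cells pyruvate is also taken into mitochondria and oxidised there.

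The deposited table gives 1 FPKM value per strain for the 3 libraries together. FPKM is fragments divided by model length and scaled for library size, here in a way that is not given. Positions below are those of the authors' own assembly of the CEN.PK lineage, and each model is a predicted coding region. No value per library is used here, so no SD, no interval and no depth can be given for any level, and how much the cultures varied is known only by way of the authors' test. A gene is said to have risen or fallen where that test called it, at a q-value under 0.05 over all models. FPKM is a relative level within the libraries, so the amount of RNA per cell is not part of it. The libraries were not described as strand-specific, so reads of an overlapping antisense transcript could not be separated from those of the gene.

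In IMY104 the pyruvate decarboxylase genes PDC1 and PDC6, the cytosolic acetaldehyde dehydrogenase genes ALD6 and ALD3 and the mitochondrial ALD4 were expressed at a lower level than in CEN.PK113-7D. Of the 7 genes that both strains carry, the authors' deposited table called 5 lower (PDC1, PDC6, ALD3, ALD4 and ALD6), 1 higher (ACH1) and left 1 without a call (ALD5). Over all 5463 tested models, 22.6% were called in the authors' deposited table, 11.0% lower and 11.6% higher in IMY104. The median log2 ratio of the 7 genes was -0.65, against 0.0076 over the 5456 tested chromosomal models. No gene of the 7 changed by as much as 2-fold in the values as deposited. The 7 genes summed to 5268 FPKM in IMY104 and 8656 FPKM in CEN.PK113-7D, and the difference in ALD4, whose product is mitochondrial, alone equalled 76.6% of that net difference.

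**Figure D1:**
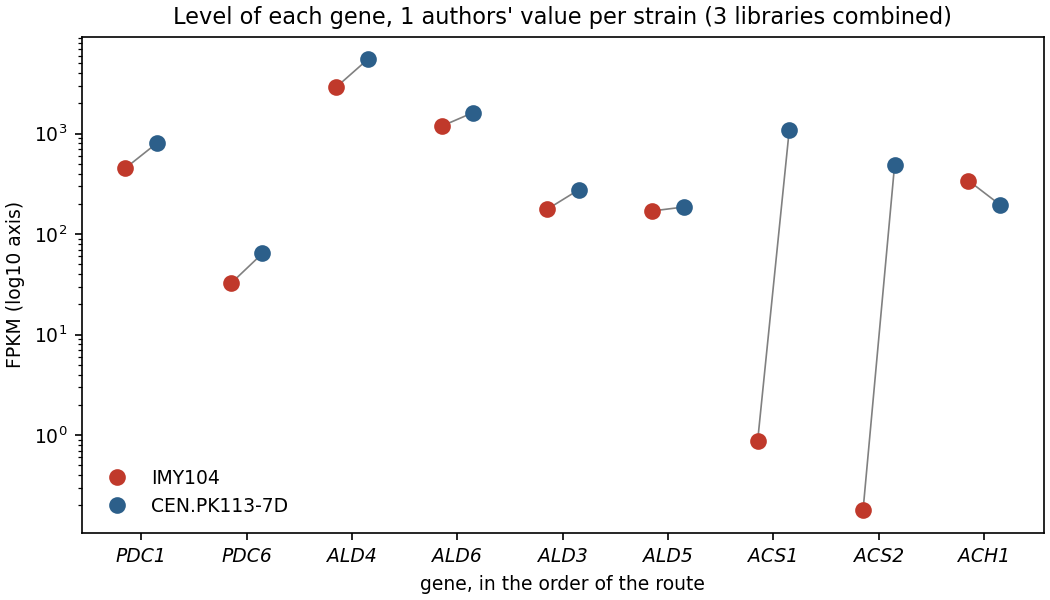
Level of each of the 9 genes in FPKM (log10 axis), with 1 authors' value per strain from 3 libraries together, IMY104 left and CEN.PK113-7D right of each gene. The lines join the 2 values of a gene. ACS1 and ACS2 drop below 1 FPKM in IMY104, ACH1 is the gene with a higher value there, and ALD5 is nearly level.

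The deleted genes come first as a check of the labels. ACS1 (YAL054C, chromosome 1, 42935 to 45076, minus strand) had 0.882 FPKM in IMY104 and 1094 FPKM in CEN.PK113-7D. ACS2 (YLR153C, chromosome 12, 430526 to 432577, minus strand) had 0.179 FPKM in IMY104 and 494 FPKM in CEN.PK113-7D. Ordered by level among 5472 chromosomal models, ACS1 and ACS2 stood at places 5457 and 5466 in IMY104, against 335 and 668 in CEN.PK113-7D. The values left in IMY104 are of the size that the 7 plasmid genes had in CEN.PK113-7D, which lacks the plasmid: 0.218 to 2.74 FPKM. The match of these values to the labels is no finding about the route.

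In CEN.PK113-7D both acetyl-CoA synthetases were expressed. ACS1, the synthetase that is repressed by glucose, made up 68.9% of their summed FPKM and ACS2, the one used during growth on abundant glucose, 31.1%, a ratio of 2.22. No such share is given for IMY104, where both genes are deleted.

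The pyruvate decarboxylases fell in IMY104, the minor isozyme as well as the major one. PDC1 (YLR044C, chromosome 12, 211665 to 213356, minus strand), the major isozyme of fermenting yeast, had 455 FPKM in IMY104 and 808 FPKM in CEN.PK113-7D. This is a log2 ratio of -0.83, or 1.78-fold lower (q = 0.00047 in the authors' deposited table). PDC6 (YGR087C, chromosome 7, 651082 to 652773, minus strand), a minor isozyme, had 32.3 FPKM in IMY104 and 64.3 FPKM in CEN.PK113-7D. Its log2 ratio was -0.99, or 1.99-fold lower (q = 0.00047 in the authors' deposited table).

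PDC1 and PDC6 together had 487 FPKM in IMY104 and 873 FPKM in CEN.PK113-7D, a log2 ratio of -0.84. The mix of the 2 isozymes was nearly the same in both strains: PDC1 made up 93.4% of the sum in IMY104 and 92.6% in CEN.PK113-7D. With 1 value per strain, the difference of 0.74 percentage points has no test. PDC6 was the only one of the 7 genes with a level below that of the median chromosomal model, 84.8 FPKM in IMY104 and 83.4 FPKM in CEN.PK113-7D.

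The third isozyme, PDC5, had no model of its own under that name and is not analysed here. In the coding sequences of the S288C reference, assembly R64, PDC1 and PDC5 shared 87.2% of aligned bases, against 75.4% between PDC1 and PDC6. Of the 1643 windows of 50 bases in the PDC1 coding sequence, 16 were found at another place of that genome, and none of those in PDC6 were. Reads of PDC5 could therefore add to PDC1 in short stretches, and the size of that share was not measured.

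Among the acetaldehyde dehydrogenases, ALD4 carried most of the level and most of the change. ALD4 (YOR374W, chromosome 15, 1039813 to 1041372, plus strand), the main mitochondrial enzyme, had 2905 FPKM in IMY104 and 5502 FPKM in CEN.PK113-7D. The log2 ratio was -0.92, or 1.89-fold lower (q = 0.00047 in the authors' deposited table). ALD4 stood at place 122 of 5472 chromosomal models by level in IMY104 and at place 69 in CEN.PK113-7D. Its difference of -2596 FPKM was the 23rd largest drop among the tested chromosomal models, the drop in ACS1 the 45th, that in ALD6 the 87th and that in PDC1 the 100th.

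ALD6 (YPL061W, chromosome 16, 432512 to 434014, plus strand) encodes the main cytosolic enzyme, which uses NADP+ and so yields NADPH. It had 1187 FPKM in IMY104 and 1624 FPKM in CEN.PK113-7D. The log2 ratio was -0.45, or 1.37-fold lower (q = 0.00047 in the authors' deposited table). ALD6 was the least changed of the 5 genes that fell.

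ALD5 (YER073W, chromosome 5, 302084 to 303646, plus strand), a minor mitochondrial enzyme, had 170.3 FPKM in IMY104 and 186 FPKM in CEN.PK113-7D. The log2 ratio was -0.13, and the authors' deposited table made no call (q = 0.363). A ratio this small cannot be told from no change by the authors' test, and the missed threshold does not show that the level was the same.

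ALD3 (YMR169C, chromosome 13, 593822 to 594001, minus strand), a stress-induced cytosolic enzyme, had 176 FPKM in IMY104 and 276 FPKM in CEN.PK113-7D. Its log2 ratio was -0.65, or 1.56-fold lower (q = 0.000874 in the authors' deposited table). This value rests on a model of 180 bp, 11.8% of the length of the gene in R64, whereas each of the other 8 genes has a model as long as its R64 gene. The model is also shorter than the library insert size of 350 bp, and how FPKM was scaled for such a short model is not given. The test statistic of ALD3 in the authors' deposited table was -22.9, against -5.59 for ALD4, whose log2 ratio was larger in size. The level, call and shares of ALD3 are thus less certain than those of the other genes. Its tandem neighbour ALD2 had no model under its own name and is not analysed here, and the 4740 bp between the ALD3 model and the nearest model on that side, EAR1, held no model. The coding sequences of ALD2 and ALD3 in R64 shared 91.8% of aligned bases, and 594 of the 1472 windows of 50 bases in ALD3 (40.4%) were found elsewhere in that genome. These windows were counted over the whole coding sequence, and the 180 bp of the model were not searched on their own. The value listed for ALD3 may hold reads of both genes, but whether it does was not measured. None of the windows of ALD4, ALD5, ALD6, ACS1, ACS2 or ACH1 were found at another place of R64.

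The 4 ALD genes summed to 4439 FPKM in IMY104 and 7588 FPKM in CEN.PK113-7D, a log2 ratio of -0.77. Within this sum ALD4 made up 65.4% in IMY104 and 72.5% in CEN.PK113-7D, a difference of -7.07 percentage points. ALD6 made up 26.7% in IMY104 and 21.4% in CEN.PK113-7D, a difference of 5.35 percentage points. ALD5 made up 3.84% in IMY104 and 2.46% in CEN.PK113-7D, and ALD3 3.97% in IMY104 and 3.64% in CEN.PK113-7D. ALD4 thus had the smaller share in IMY104, although ALD6 and ALD3 fell too. These shares are a description of 1 value per strain and were not tested.

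Read by compartment, the mitochondrial pair ALD4 and ALD5 had 3076 FPKM in IMY104 and 5688 FPKM in CEN.PK113-7D, a log2 ratio of -0.89. The cytosolic pair ALD6 and ALD3 had 1364 FPKM in IMY104 and 1900 FPKM in CEN.PK113-7D, a log2 ratio of -0.48. The share of the mitochondrial pair in the ALD sum differed by -5.69 percentage points between IMY104 and CEN.PK113-7D. The level of ALD4 was 2.45 times that of ALD6 in IMY104 and 3.39 times in CEN.PK113-7D. The sum of all 4 ALD genes was 9.11 times the PDC sum in IMY104 and 8.70 times in CEN.PK113-7D, so this ratio moved little. Most of that ALD sum is mitochondrial, however. The cytosolic ALD pair alone changed less than the PDC sum, with log2 ratios of -0.48 and -0.84. ALD6 without ALD3, whose model is short, had a log2 ratio of -0.45. Among the listed cytosolic genes the balance thus moved from PDC towards ALD in IMY104. PDC5 is missing from the PDC sum, and none of these ratios was tested.

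**Figure D2:**
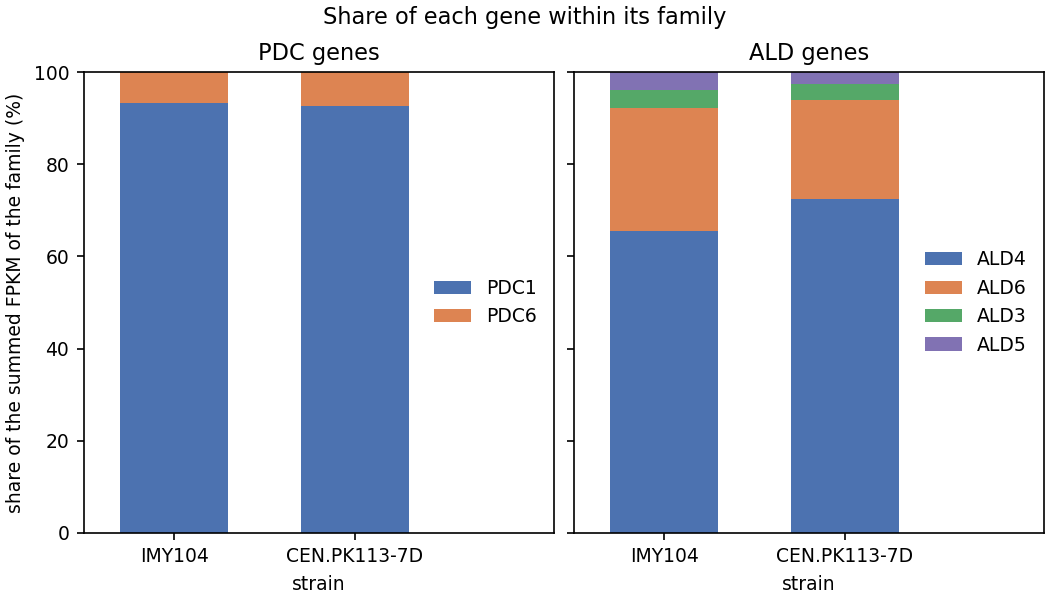
Share of each gene in the summed FPKM of its family (percent), for the PDC genes (left panel) and the ALD genes (right panel), with IMY104 left of CEN.PK113-7D in each panel. Bars are 1 authors' value per strain, so no error is drawn. The PDC bars are nearly the same, while ALD4 takes 65.4% in IMY104 and 72.5% in CEN.PK113-7D.

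ACH1 moved the other way. ACH1 (YBL015W, chromosome 2, 188833 to 190413, plus strand) encodes a mitochondrial transferase of coenzyme A that acts on acetate and succinate, so it can form acetyl-CoA from acetate without ATP inside the organelle. It had 342 FPKM in IMY104 and 196 FPKM in CEN.PK113-7D. The log2 ratio was 0.80, or 1.74-fold higher (q = 0.00047 in the authors' deposited table). By level it stood at place 894 of the chromosomal models in IMY104 and at place 1459 in CEN.PK113-7D.

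The order of the 7 genes by level also differed between the strains. In IMY104 it was ALD4, ALD6, PDC1, ACH1, ALD3, ALD5 and PDC6, and in CEN.PK113-7D it was ALD4, ALD6, PDC1, ALD3, ACH1, ALD5 and PDC6. ALD3 and ALD5 lay close together in IMY104, at 176 and 170.3 FPKM, and ACH1 and ALD5 lay close in CEN.PK113-7D, at 196 and 186 FPKM. Whether such neighbours differ beyond the spread between cultures was not tested. The place of ALD3 in this order rests on its short model.

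Against the whole table the ratios of these genes lay far out in the distribution, with ALD5 as the exception. The quartiles of the log2 ratio over the tested chromosomal models were -0.11 and 0.14. A lower log2 ratio than that of PDC6 was found in 1.08% of these models, than that of ALD4 in 1.26%, than that of PDC1 in 1.52%, than that of ALD3 in 2.33% and than that of ALD6 in 4.84%. For ALD5 the share was 22.3%. A higher log2 ratio than that of ACH1 was found in 1.47% of the models.

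**Figure D3:**
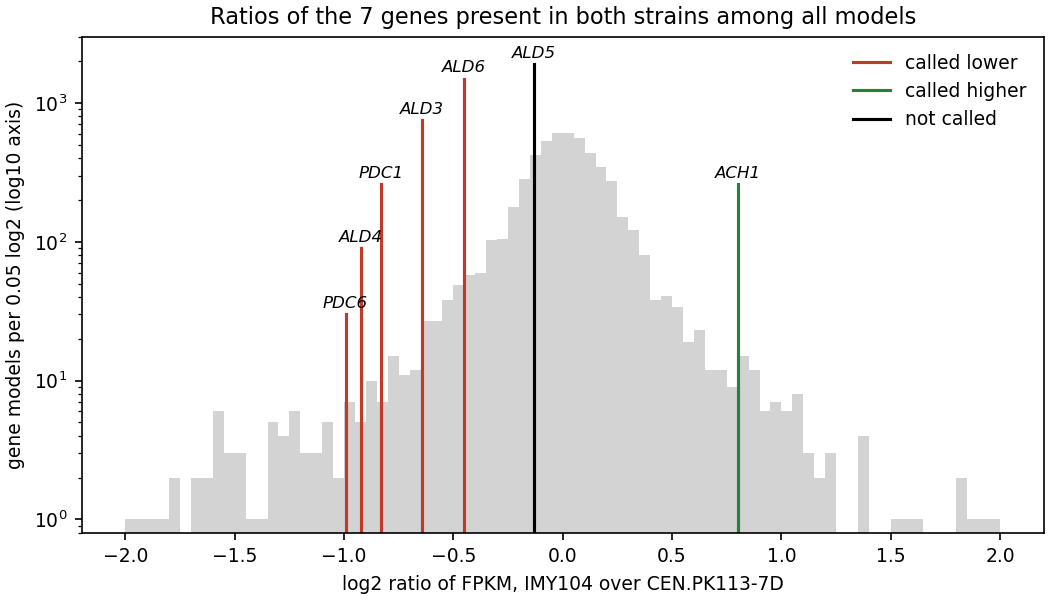
Histogram of the log2 ratio of FPKM, IMY104 over CEN.PK113-7D, for the tested chromosomal gene models (grey; counts per bin on a log10 axis), with the 7 genes present in both strains as vertical lines. Lines are coloured by the authors' call and their heights carry no value, and 13 models beyond -2 or 2 are not drawn. PDC6, ALD4 and PDC1 lie at -0.99, -0.92 and -0.83, and ACH1 at 0.80.

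For each of the 9 genes the nearest models on both sides, 2 per side, were read, 36 in all. Of these 4 fell, 2 rose and 30 were not called in the authors' deposited table, which is 16.7% called, against 22.6% of all tested models, and their median log2 ratio was -0.02. Next to PDC1 on one side, the thioredoxin gene TRX1 had 2528 FPKM in IMY104 and 3011 FPKM in CEN.PK113-7D and fell with a log2 ratio of -0.25 (q = 0.0456 in the authors' deposited table). NFG1, the second model on that side, fell with a log2 ratio of -0.38 (q = 0.00307 in the authors' deposited table).

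Next to PDC6, the cytosolic catalase gene CTT1 had 20.5 FPKM in IMY104 and 33.5 FPKM in CEN.PK113-7D and fell with a log2 ratio of -0.71 (q = 0.00047 in the authors' deposited table). The glutamate dehydrogenase gene GDH1, 278 bp beyond the end of ALD4, rose with a log2 ratio of 0.31 (q = 0.0155 in the authors' deposited table), opposite to ALD4. Beside ALD5, VTC1 fell with a log2 ratio of -0.35 (q = 0.00126 in the authors' deposited table). Around the deleted genes, FLC2 next to ACS1 rose with a log2 ratio of 0.31 (q = 0.00969 in the authors' deposited table), and the other 7 models read there were not called. MAS1, the farther model on its side of ACS2, lay 44291 bp away, so it does not describe the close surroundings of ACS2.

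**Figure D4:**
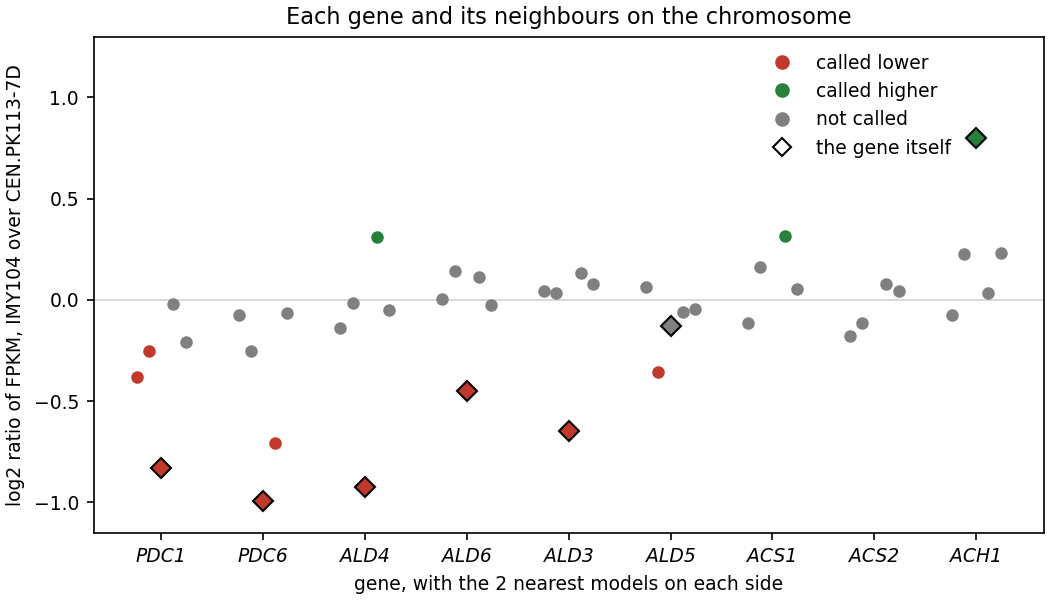
Log2 ratio of FPKM, IMY104 over CEN.PK113-7D, of each gene (diamonds) and of the 2 nearest gene models on each side (circles), coloured by the authors' call; ACS1 and ACS2 themselves lie off the axis and are not drawn. Most circles lie near 0, and CTT1 beside PDC6 is the lowest of them at -0.71.

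The genes with the most similar pair of levels were picked by distance in log2 FPKM over the 2 strain values, which describes 2 values and nothing about function. For PDC1 the closest were the HSP90 gene HSP82, with 453 FPKM in IMY104 and 806 FPKM in CEN.PK113-7D, and its co-chaperone gene AHA1, with 424 FPKM in IMY104 and 824 FPKM in CEN.PK113-7D. For ALD6 the closest were the eisosome gene LSP1, with 1196 FPKM in IMY104 and 1630 FPKM in CEN.PK113-7D at a distance of 0.012, and HPT1 at 0.11. For ACH1 they were the mitochondrial ADP/ATP carrier gene AAC1, at a distance of 0.076, and NCW2 at 0.12. ALD4 had no near match: the closest, the histone gene HTA1, lay at 0.30, and the glycolytic gene GPM1 at 0.34. For PDC6 the closest were VHS1 and PHO3, at distances of 0.16 and 0.17, and for ALD3 they were ECM4, a name that stands on 2 models, and OPI10, at 0.11 for each.

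Genes around the route were read from 9 lists. Of the 65 genes with a model, out of 73 listed, 6 rose and 19 fell in the authors' deposited table (38.5% called, against 22.6% of all tested models), and their median log2 ratio was -0.05. The 5 genes of the mitochondrial pyruvate dehydrogenase complex, which makes acetyl-CoA from pyruvate inside the organelle, were not called, any of them, in the authors' deposited table. PDA1, of the E1 alpha subunit, had 593 FPKM in IMY104 and 601 FPKM in CEN.PK113-7D. PDB1, of E1 beta, had 774 FPKM in IMY104 and 742 FPKM in CEN.PK113-7D, and LAT1, of E2, had 470.2 FPKM in IMY104 and 456 FPKM in CEN.PK113-7D. LPD1, of E3, had 556 FPKM in IMY104 and 480.1 FPKM in CEN.PK113-7D, and PDX1, which anchors E3, had 137 FPKM in IMY104 and 138 FPKM in CEN.PK113-7D. Their log2 ratios ran from -0.02 to 0.21, and whether they differ from those of the PDC and ALD genes was not tested.

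The genes for subunits of the mitochondrial pyruvate carrier changed in level, while the entry of pyruvate itself was not measured. MPC3 had 2353 FPKM in IMY104 and 3815 FPKM in CEN.PK113-7D and fell, and MPC1 had 633 FPKM in IMY104 and 1049 FPKM in CEN.PK113-7D and fell. MPC2 had 2299 FPKM in IMY104 and 1498 FPKM in CEN.PK113-7D and rose (q = 0.00047 for each in the authors' deposited table). MPC1 is the constant partner of the carrier, paired with MPC2 in fermentative and with MPC3 in respiratory growth.

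Of the 5 alcohol dehydrogenase genes read, 2 fell and none rose in the authors' deposited table, with a median log2 ratio of 0.02. Over all tested models 11.0% were called lower and 11.6% higher. ADH3, ADH4 and ADH5 were not called, with log2 ratios of 0.06, 0.02 and 0.04. They were named after their values were seen. SFA1, which also handles formaldehyde, had 127 FPKM in IMY104 and 159 FPKM in CEN.PK113-7D, a log2 ratio of -0.33 (q = 0.00236 in the authors' deposited table). ADH6, an NADPH-dependent enzyme, had 196 FPKM in IMY104 and 239.8 FPKM in CEN.PK113-7D, a log2 ratio of -0.29 (q = 0.0105 in the authors' deposited table). No model carried the name ADH1, ADH2 or ADH7, and these genes are not analysed here.

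ALD6 is 1 of several sources of NADPH, and of the 7 other source genes read, 3 fell and 1 rose in the authors' deposited table. Of all tested models 11.0% fell and 11.6% rose. The peroxisomal isocitrate dehydrogenase gene IDP3 had 110.2 FPKM in IMY104 and 191 FPKM in CEN.PK113-7D, and the cytosolic IDP2 had 853 FPKM in IMY104 and 1370.0 FPKM in CEN.PK113-7D (q = 0.00047 for each in the authors' deposited table). GND2, the minor phosphogluconate dehydrogenase, fell with a log2 ratio of -0.37, and the mitochondrial IDP1 rose with 0.26 (q = 0.000874 and 0.0317 in the authors' deposited table). The median log2 ratio of this list was 0.01.

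Acid transport held the lowest log2 ratio of the 65 genes, that of JEN1, with 3 of 6 genes lower and none higher in the authors' deposited table and a median log2 ratio of -0.53. Over all tested models 11.0% were lower and 11.6% higher. JEN1, a permease of lactate and pyruvate, had 1631 FPKM in IMY104 and 3859 FPKM in CEN.PK113-7D, a log2 ratio of -1.24. ADY2, an acetate transporter, had 802 FPKM in IMY104 and 1722 FPKM in CEN.PK113-7D. ATO3, of the same family as ADY2, had 626 FPKM in IMY104 and 1129 FPKM in CEN.PK113-7D, and all 3 fell (q = 0.00047 for each in the authors' deposited table).

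Genes listed as users of cytosolic acetyl-CoA split, with 2 of 10 higher and 2 lower in the authors' deposited table and a median log2 ratio of -0.02. The shares over all tested models were 11.6% higher and 11.0% lower. CIT2, in this list although it encodes the peroxisomal and not a cytosolic citrate synthase, had 1682 FPKM in IMY104 and 417 FPKM in CEN.PK113-7D. The carnitine acetyltransferase gene YAT2 had 598 FPKM in IMY104 and 339.9 FPKM in CEN.PK113-7D. The acetyl-CoA carboxylase gene ACC1 had 169.9 FPKM in IMY104 and 246 FPKM in CEN.PK113-7D, and FAS1, a fatty acid synthase subunit, had 311 FPKM in IMY104 and 446 FPKM in CEN.PK113-7D. The first pair rose and the second pair fell (q = 0.00047 for each in the authors' deposited table). The other fatty acid synthase subunit gene, FAS2, was not called, with 183 FPKM in IMY104 and 191 FPKM in CEN.PK113-7D. Nor was ERG10, of the first step of sterol synthesis, with 597 FPKM in IMY104 and 523 FPKM in CEN.PK113-7D. FAS2 and ERG10 were named after their values were seen.

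Of 17 regulator genes 3 fell and 2 rose in the authors' deposited table, with a median log2 ratio of -0.04. Among all tested models the shares were 11.0% lower and 11.6% higher. STB5, an activator of NADPH-yielding genes, had 21.8 FPKM in IMY104 and 30.4 FPKM in CEN.PK113-7D, a log2 ratio of -0.48 (q = 0.00047 in the authors' deposited table). ERT1, a regulator of genes for nonfermentable carbon, rose with a log2 ratio of 0.44, UME6 fell with -0.32, and MSN4, of the stress response, rose with 0.31 (q = 0.000874, 0.00777 and 0.00721 in the authors' deposited table). PDC2, the activator of the pyruvate decarboxylase genes, had 46.5 FPKM in IMY104 and 45.1 FPKM in CEN.PK113-7D. CAT8, an activator of ACS1, had 35.8 FPKM in IMY104 and 31.9 FPKM in CEN.PK113-7D. Neither was called, and both were named for their known role after their values were seen. ADR1, the remaining regulator gene that fell, had 70.6 FPKM in IMY104 and 86.3 FPKM in CEN.PK113-7D. Its log2 ratio was -0.29 (q = 0.0166 in the authors' deposited table), and it too was named after its values were seen.

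Relatives of the enzymes above were read in 2 lists, and over all tested models 11.0% were called lower and 11.6% higher in the authors' deposited table. Of 6 other genes for 2-oxo acid decarboxylases and aldehyde dehydrogenases, 2 fell and none rose in the authors' deposited table: the fatty aldehyde dehydrogenase gene HFD1 with a log2 ratio of -0.29 and ARO10, of amino acid breakdown, with -0.24 (q = 0.021 and 0.0494 in the authors' deposited table). Of 6 other acyl-CoA synthetase genes, 2 fell and none rose: FAA2, the peroxisomal enzyme, with -0.64 and FAA4 with -0.35 (q = 0.00047 and 0.00371 in the authors' deposited table). The median log2 ratios of these lists were -0.10 and -0.18.

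**Figure D5:**
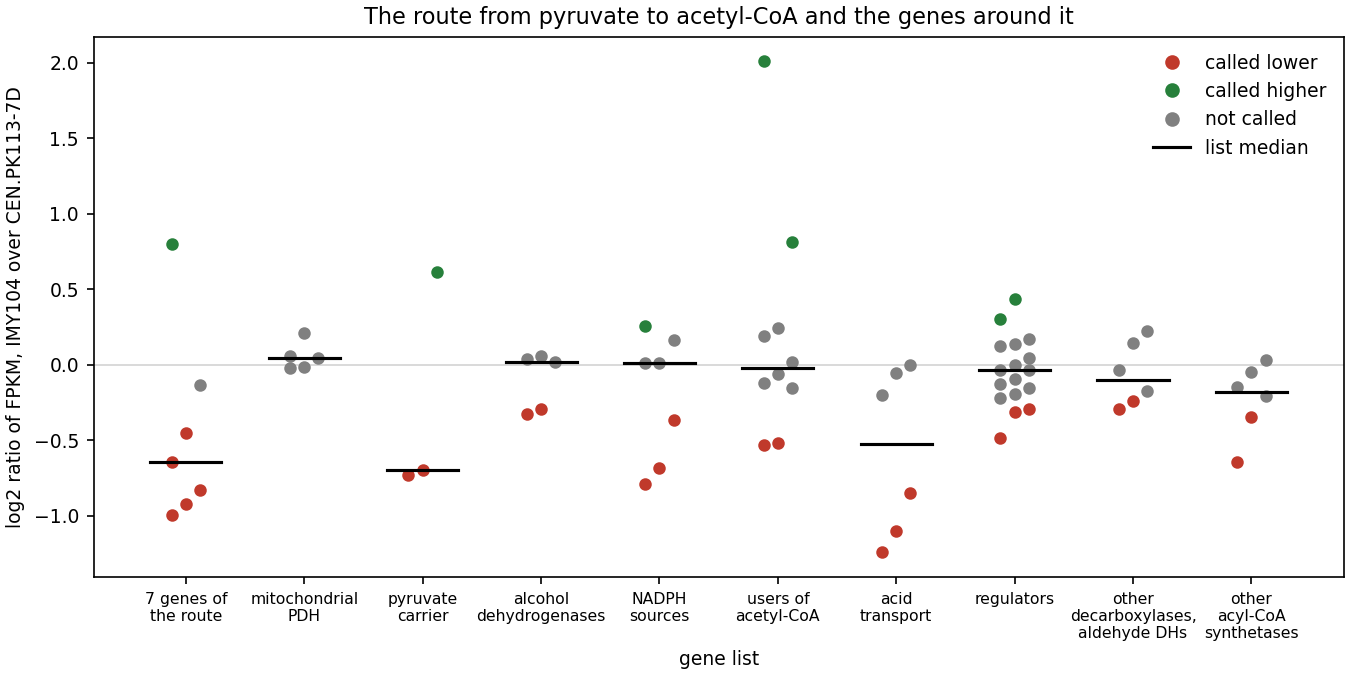
Log2 ratio of FPKM, IMY104 over CEN.PK113-7D, for the 7 genes that both strains carry, PDC1, PDC6, ALD3 to ALD6 and ACH1 (7 genes of the route on the axis), and for 9 lists of genes around them; each point is a gene, coloured by the authors' call, and the bars are list medians. These 7 genes have their median at -0.65, and the genes of the mitochondrial pyruvate dehydrogenase complex lie between -0.02 and 0.21.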

How the data were processed

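RNA-seq was done on 3 libraries per strain from independent chemostats. Per the submitters' processing notes, the tools included Cuffdiff, Cufflinks, SAMtools 0.1.7-r510, BWA 0.5.9-r16 and CASAVA 1.8.2, with no role given. How libraries were scaled, and the name of the build, is not given in the sources used here. Deposited values are 1 FPKM per JIGSAW gene model and strain, in which the authors joined its 3 libraries, per the file headers. The authors' deposited table also gives a signed fold change, log2 fold change, test statistic (a score), p-value and q-value. Coordinates are those of the authors' assembly, counted from 1.

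The members were read by gene name, and log2 ratios, sums and shares were computed from the 2 FPKM columns with pandas 2.3.3 and numpy 2.4.6 in Python 3.11.15, with no pseudocount. The log2 ratios equalled the deposited log2 values within 0.0001, and recomputed Benjamini-Hochberg values equalled the deposited q-values within 1e-06. The recomputation was tested on simulated p-values. The smallest p, 5e-05, was shared by 581 models (q = 0.00047), so it ranks none of them. The planned limma fit needs values per library, so calls are the authors' own. The members, lists and tests were chosen with earlier results of these data known. Named were the 9 members, up to 4 called genes per list by absolute log2 ratio, all genes of the mitochondrial pyruvate dehydrogenase complex, the 2 nearest models by level of each called member, and called neighbours. A few more genes, marked so in the text, were named after their values were seen. Symbols came from assembly R64 of strain S288C, whose coding sequences were aligned with biopython 1.88 and searched in windows of 50 bases. Protein identities and promoter motifs, planned at first, were not computed.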

Additional observations from a re-analysis of the deposited data

How the results depend on the processing

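The log2 ratio of each of the 9 genes kept its direction with the median ratio set to 0, equal summed FPKM and quantile normalization. A pseudocount of 1 or 5 FPKM, added to both strains, cannot turn a direction and changes only the size. Taking all models of a gene left each ratio as it was, because each gene has 1 model. These alternatives give a ratio with no test. The calls of the 9 genes were the same at q under 0.01 and with Benjamini-Hochberg adjustment over the 5321 models with a mean of at least 10 FPKM. The range of the log2 ratio was -0.93 to -0.75 for ALD4, -0.84 to -0.74 for PDC1, -0.46 to -0.36 for ALD6, -0.65 to -0.56 for ALD3, -0.14 to -0.05 for ALD5 and 0.78 to 0.88 for ACH1, and the smallest drop of PDC6 was -0.89. With pseudocounts the log2 ratios of the deleted genes shrank to as little as -7.55 for ACS1 and -6.59 for ACS2. The summed PDC ratio was -0.76 with equal sums as with quantile normalization, and the summed ALD ratio -0.69 and -0.63. As shares of fragments (FPKM times length), ALD4 changed by -7.01 points, ALD6 by 5.51, ALD5 by 1.46 and ALD3 by 0.043, the last because its model is short. With models of at least 300 bp, ALD4 changed by -7.09 points, ALD6 by 5.65 and ALD5 by 1.45. At q under 0.01, 412 models were called higher and 465 lower, against 634 and 601 at q under 0.05, so the larger side changed. With a 2-fold limit as well as q under 0.05, 45 were higher and 58 lower. No library could be left out, because the table has 1 value per strain, and depth is unknown. No paired analysis was possible because the labels number no replicates and the table has 1 value per strain.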
